A study of Mus musculus with 4 samples.

Results

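The genes described here make ribosomes in the nucleolus or belong to the MYC network that is linked to them. They are 45 genes, given by symbol. For each one the probe set with the highest mean over the 4 arrays was used, among probe sets that the platform annotation ties to that gene alone. Such a probe set was found for 44 genes, and all 44 passed the filter on dim probe sets and were among the 13565 genes tested. Npm3 had no probe set with its symbol alone and was not analysed here.

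Mesangial cells are the contractile support cells between the capillaries of the kidney glomerulus. RNA of such cells from the mouse was measured on 4 one-colour oligonucleotide arrays. Per the labels, 2 arrays belong to TGF-beta1 (transforming growth factor beta 1, which makes these cells lay down matrix) and 2 to low glucose. Strain, age, dose, time and the glucose level of the TGF-beta1 cells are not stated in the sources read here, so an effect of TGF-beta1 and one of glucose cannot be told apart. The labels name no separate cultures for the replicates. The p-values therefore cannot be taken to cover the spread between cultures. Those of the fit used below cover only the disagreement between 2 array pairs, pooled over genes of like brightness, and that may be technical. Fewer cells of a type cannot be told apart from less RNA per cell.

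Ribosome assembly starts when RNA polymerase I copies the ribosomal DNA in the nucleolus. Small nucleolar ribonucleoproteins (snoRNPs) then modify the precursor RNA, and a long series of assembly factors folds, cuts and exports the small and the large subunit. MYC, paired with its partner MAX, binds E-boxes, short DNA sites, and raises many of these genes together, while the MXD proteins and MXI1 compete with MYC for MAX. In many epithelial cells TGF-beta lowers MYC, and mesangial cells that accumulate matrix are known to enlarge, a state that needs more protein synthesis.

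Promoter windows from RefSeq (build GRCm38.p6) were searched for the E-box that MYC and MAX are known to bind. Each window ran from 250 bases before to 50 bases after the annotated start. The letters searched were CACGTG, which read the same on both strands. Windows were found for 39 of the 45 genes, Myc, Npm1, Fbl, Bop1, Rrp12 and Rrs1 being the ones without. At least 1 E-box lay in the window of 10 of the 39 genes (25.6%), against 11.3% of the 10908 tested genes with a window and 8.09% of all 27025 genes in the table. Other factors bind the same letters, and a match is a description of the sequence, not a binding site. The sequences run from 250 bases before to 30 after the start on the gene's own strand. They are those of 3 genes that rose and hold an E-box (Nop2, Tsr1, Wdr43), of Ddx21, which had the largest rise among the genes with a window and holds none, of Mxd4, which fell, and of Max and Rrn3, which did not pass the test. Capitals mark the E-box.
Nop2, chr6:125131633-125131912, plus strand: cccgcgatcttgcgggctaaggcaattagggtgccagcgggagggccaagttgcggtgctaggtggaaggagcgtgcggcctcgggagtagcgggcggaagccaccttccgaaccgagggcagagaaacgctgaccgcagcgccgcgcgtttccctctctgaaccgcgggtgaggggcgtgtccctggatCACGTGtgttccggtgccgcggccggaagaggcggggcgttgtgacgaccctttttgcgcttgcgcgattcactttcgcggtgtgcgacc
Tsr1, chr11:74897830-74898109, plus strand: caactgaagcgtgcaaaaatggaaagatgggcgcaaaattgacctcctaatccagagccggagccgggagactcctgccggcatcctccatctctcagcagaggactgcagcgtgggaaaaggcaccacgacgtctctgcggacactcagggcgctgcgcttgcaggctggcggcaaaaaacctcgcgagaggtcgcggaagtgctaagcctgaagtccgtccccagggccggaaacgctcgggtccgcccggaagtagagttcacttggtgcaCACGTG
Wdr43, chr17:71615965-71616244, plus strand: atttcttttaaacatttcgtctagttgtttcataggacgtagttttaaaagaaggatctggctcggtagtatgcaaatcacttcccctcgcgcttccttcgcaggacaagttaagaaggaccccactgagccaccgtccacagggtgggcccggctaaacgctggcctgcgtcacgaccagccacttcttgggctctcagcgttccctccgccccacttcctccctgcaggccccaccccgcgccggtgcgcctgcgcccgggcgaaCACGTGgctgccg
Ddx21, chr10:62602269-62602548, minus strand: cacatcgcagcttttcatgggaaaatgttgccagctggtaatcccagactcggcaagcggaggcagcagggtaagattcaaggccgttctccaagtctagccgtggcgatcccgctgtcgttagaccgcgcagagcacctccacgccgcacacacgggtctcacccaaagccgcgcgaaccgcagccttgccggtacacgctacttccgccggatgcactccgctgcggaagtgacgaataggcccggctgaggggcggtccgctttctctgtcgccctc
Mxd4, chr5:34187681-34187960, minus strand: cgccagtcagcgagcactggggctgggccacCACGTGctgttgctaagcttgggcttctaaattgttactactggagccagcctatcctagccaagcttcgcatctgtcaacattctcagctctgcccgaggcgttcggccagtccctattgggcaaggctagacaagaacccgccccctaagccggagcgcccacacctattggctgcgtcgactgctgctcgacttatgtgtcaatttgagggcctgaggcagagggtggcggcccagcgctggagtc
Max, chr12:76962219-76962498, minus strand: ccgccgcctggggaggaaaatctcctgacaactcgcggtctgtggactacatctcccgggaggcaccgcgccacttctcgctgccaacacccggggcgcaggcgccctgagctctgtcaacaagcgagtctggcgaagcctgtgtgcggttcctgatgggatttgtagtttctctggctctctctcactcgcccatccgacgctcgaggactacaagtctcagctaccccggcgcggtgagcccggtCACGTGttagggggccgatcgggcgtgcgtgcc
Rrn3, chr16:13780449-13780728, plus strand: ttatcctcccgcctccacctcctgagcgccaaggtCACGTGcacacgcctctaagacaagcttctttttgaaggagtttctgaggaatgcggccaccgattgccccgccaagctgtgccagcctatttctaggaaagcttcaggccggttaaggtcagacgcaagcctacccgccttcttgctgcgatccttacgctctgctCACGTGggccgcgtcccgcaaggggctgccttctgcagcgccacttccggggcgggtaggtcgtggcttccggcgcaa

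The E-box started 60 bases before the start in Nop2, and at base 25 after it in Tsr1 and base 18 in Wdr43. In Max it spanned the start itself. Rrn3 held 2, and that of Mxd4 was the farthest upstream of the genes printed, as the map of E-box positions shows. Of the 21 genes with a window that rose, 5 held an E-box, as did 1 of the 2 that fell and 4 of the 15 that the test did not call. These shares were 23.8% among the genes that rose and 26.7% among those not called, against 11.6% of the 818 tested genes with a window that rose. No test was made of them.

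**Figure D1:**
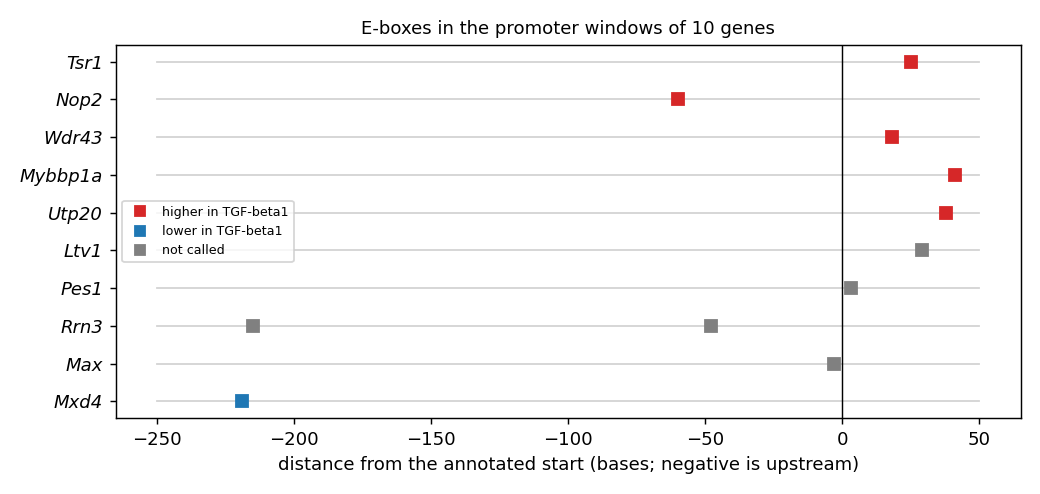
E-box positions (squares, first base) in the promoter windows of the 10 genes that hold one. The horizontal axis is the distance from the annotated start in bases, and colours give the call of TGF-beta1 against low glucose. Each of the 10 genes except Mxd4 holds an E-box within 60 bases of the start, whether it rose or did not pass.

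Differences below are TGF-beta1 minus low glucose of log2 intensities, taken once 46.88 had been added to each deposited intensity as a pseudocount and the arrays had been quantile normalised. They understate the change of dim genes. The 4 arrays fell into 2 pairs by 18 probe sets of hybridisation spike-ins, transcripts added to every sample. Pair 1 held TGF-beta1 replicate 2 and low glucose replicate 1, and pair 2 held TGF-beta1 replicate 1 and low glucose replicate 2. Each pair thus compares both conditions. A gene is said to have risen or fallen where its adjusted p was under 0.05 in the limma fit over all genes with the array pair as a block, and values after ± are its standard errors, with n = 2 arrays per group.

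Most ribosome biogenesis genes were higher in TGF-beta1 by a small amount, together with Myc, while 2 antagonists of MYC were lower. Of the 44 genes, 26 rose, 2 fell and 16 did not pass. Over all 13565 genes, 7.89% rose and 10.6% fell (18.5% called in all). The median difference of the 44 genes was 0.21, with 0.17 within pair 1 and 0.25 within pair 2, against -0.00012 over all genes tested. A difference of at least 0.2 was reached by 26 of the 44 genes, against 6.83% of all genes. One of -0.2 or less was reached by 2, against 9.21%. The 44 genes were brighter, with a median log2 level of 9.43 against 8.20 over all genes, and differences of dim genes are understated. Both TGF-beta1 arrays lay above both low glucose arrays for 20 of the 44 genes and below them for 2, against 9.83% and 11.1% of all genes. The calls rest on the block: without it limma called 0 genes and 0 members, with 4 members (Myc, Ddx21, Gnl3 and Mxi1) and 2% of all genes at an unadjusted p under 0.05, and with the block and the prior of that fit it also called 0. With each array centred on its median in place of quantile normalisation, 16 members rose and 2 fell, and Polr1a, Polr1b, Fbl, Nop56, Utp20, Bysl, Bop1, Noc2l, Nop16 and Nip7 lost their call.

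**Figure D2:**
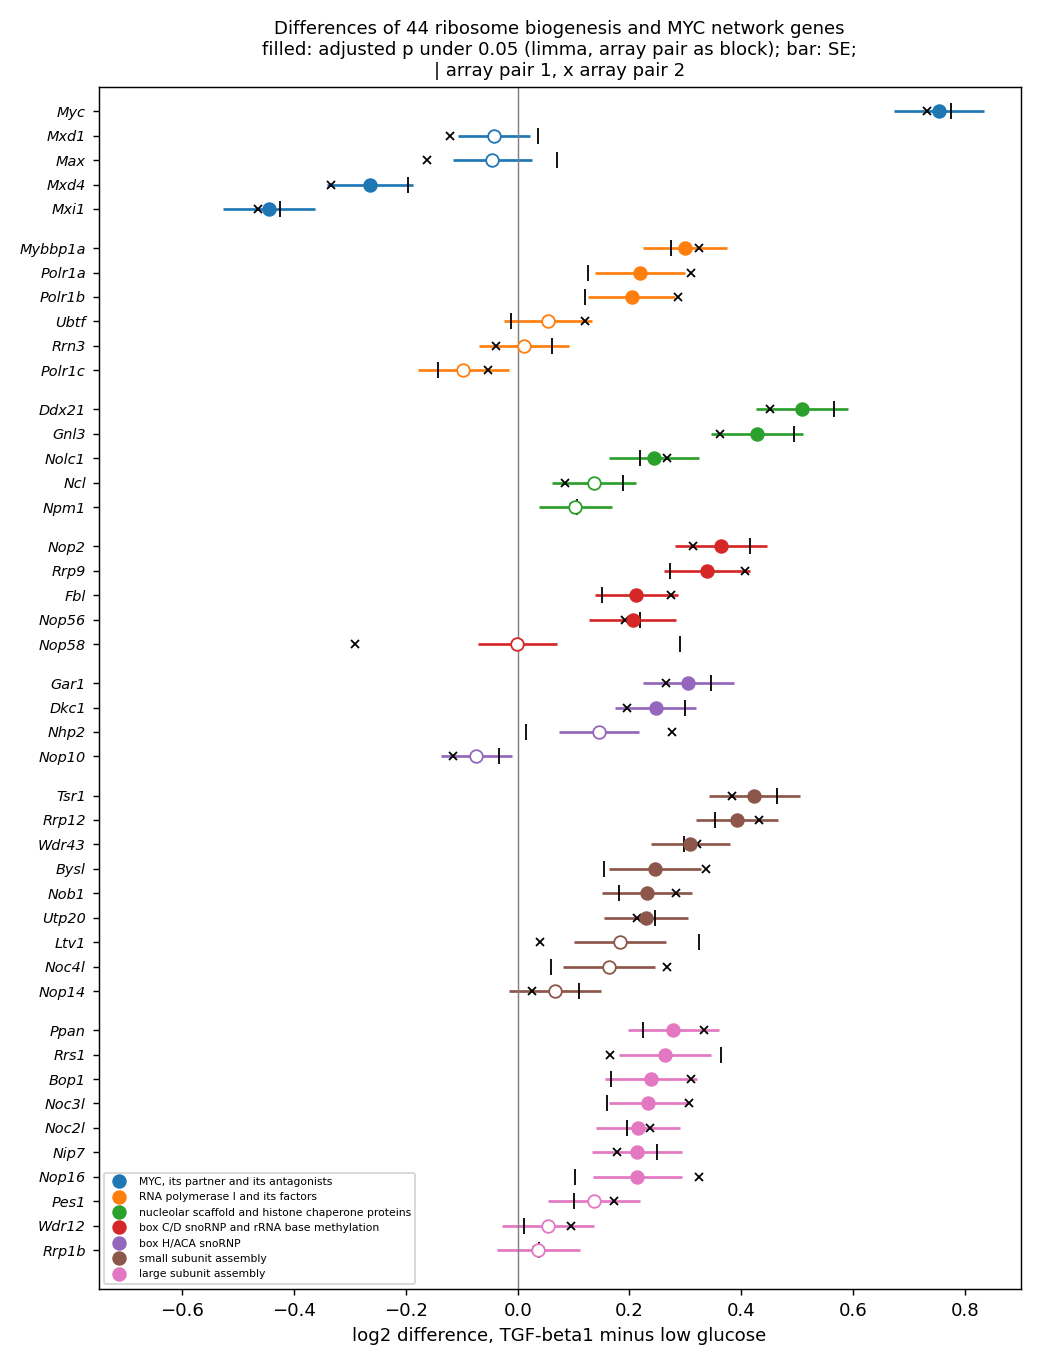
Log2 difference, TGF-beta1 minus low glucose, of the 44 genes by role. Circles are the differences, filled where the adjusted p was under 0.05, bars are standard errors (limma, array pair as a block, n = 2 arrays per group), and the bar and cross marks are the values within array pairs 1 and 2. Outside the MYC network, 25 of 39 genes rose and none fell.

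Median intensities were 80.3 and 99.6 in TGF-beta1 and 96.8 and 78.3 in low glucose, so they differed by array pair rather than by group. The ratio of 3' to 5' signal of Gapdh, a sign of RNA quality, was 0.948 and 1.003 in TGF-beta1 and 0.981 and 0.963 in low glucose, and that of beta-actin was 1.32 and 1.18 in TGF-beta1 and 1.18 and 1.51 in low glucose. Of 9 mesangial and pericyte markers 7 were above the filter, Gata3 and Thy1 being below it, and the summed intensity of the list was 6417 and 7343 in TGF-beta1 against 5955 and 5132 in low glucose. Vim, which many cultured cells express, made up 82.6% to 85.7% of that sum, and the rest of the list summed to 1120 and 1104 in TGF-beta1 against 849 and 786 in low glucose. The more specific markers Pdgfrb, Cspg4, Des and Itga8 had mean log2 levels of 7.17, 7.19, 7.54 and 6.85, against a filter at 6.85. The defining mesangial markers thus lay near or below the filter. Tagln, Acta2 and Vim rose, by 0.88 ± 0.071, 0.32 ± 0.066 and 0.29 ± 0.050. The other markers of this list above the filter did not pass. Pdgfrb, Itga8 and Cspg4 were each at 0.05, and Des was at -0.10 and lower on both TGF-beta1 arrays. Acta2 was at 0.18 without TGF-beta1 replicate 1. Markers of renal tubule cells were also present, 5 of 6 above the filter, Cdh16 and Pax8 clearly so with mean log2 levels of 10.83 and 9.54, with sums of 2922 and 2827 in TGF-beta1 against 3582 and 3262 in low glucose. Cdh16 and Lrp2 of this list fell by 0.31 ± 0.074 and 0.29 ± 0.077, and the leukocyte marker Csf1r fell by 0.38 ± 0.080. The other leukocyte markers tested did not pass, with Adgre1 at 0.06, Cd68 at 0.14 and Lyz2 at -0.03. Without TGF-beta1 replicate 2 Cdh16 was at -0.20, and without TGF-beta1 replicate 1 and low glucose replicate 1 Csf1r was at -0.20 and -0.24. Of podocyte markers 3 of 5 were above the filter (545 and 778 in TGF-beta1, 738 and 580 in low glucose). Among them Synpo fell by 0.58 ± 0.065 (adjusted p = 5.5e-17) with no overlap of the groups, but was at 0.07 on its other probe set and at -0.35 without TGF-beta1 replicate 2. Podxl rose by 0.23 ± 0.071 (adjusted p = 0.0102), ran from 0.0045 to 0.46 on leaving out 1 array and was at -0.01 on its other probe set. Of endothelial markers 1 of 5 were above the filter (203 and 288 in TGF-beta1, 277 and 219 in low glucose). Of leukocyte markers 4 of 5 were above it (1242 and 1582 in TGF-beta1, 1932 and 1540 in low glucose). Csf1r made up 76.7% to 85.8% of the leukocyte sums, and Adgre1, Cd68 and Lyz2 had mean log2 levels of 7.12, 7.10 and 6.93, near the filter. Of all these lists 0 markers were at 0. The part of other cells in the results was not tested.

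Myc, the transcription factor that drives ribosome production, stood apart from the rest of its network. Its level was 9.72 and 9.50 on the TGF-beta1 arrays, against 8.72 and 8.99 on the low glucose arrays. In deposited intensities these were 781 and 688 in TGF-beta1 against 385 and 456 in low glucose. Both TGF-beta1 arrays were above both low glucose arrays. The rise was 0.75 ± 0.081 (1.69-fold; adjusted p = 1.34e-18; 0.78 and 0.73 within pairs 1 and 2), which ranked 65th of the 13565 genes. When any 1 array was left out, in a fit without the block, it lay between 0.62 and 0.88. Leaving out 1 array unbalances the pairs, and such values are given for the other genes that rose or fell where they differ from the full value by over 1.5 times. The 16 members that did not pass all moved by that much on leaving out 1 array, and 13 of them changed sign, the exceptions being Noc4l, Npm1 and Rrp1b. Their printed sizes were therefore not stable to leaving out 1 array, and neither was their direction except in Noc4l, Npm1 and Rrp1b. As this unbalances the pairs, it does not measure the direction within the pairs. Ltv1 ran from -0.28 to 0.65, Nop14 from -0.44 to 0.58, Rrn3 from -0.40 to 0.42 and Ncl from -0.09 to 0.37.

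Mxi1, which competes with MYC for MAX and represses the same sites, moved the other way. It was at 9.63 and 9.81 in TGF-beta1, against 10.24 and 10.09 in low glucose, so the groups did not overlap. The fall was -0.44 ± 0.082 (adjusted p = 1.78e-06; -0.43 and -0.46 within the pairs), and its other probe set was at -0.29. Mxd4, another MAX-binding antagonist, was at 8.74 and 8.71 in TGF-beta1 against 8.90 and 9.07 in low glucose, again without overlap. It fell by 0.26 ± 0.077 (adjusted p = 0.00535), and its 3 other probe sets were at -0.42, -0.46 and -0.11.

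Max, the shared partner of MYC and its antagonists, showed no such separation, with 8.29 and 8.65 in TGF-beta1 and 8.58 and 8.45 in low glucose. Its difference was -0.05 ± 0.071 (adjusted p = 0.728), with opposite signs within the pairs (0.07 and -0.16). Mxd1, an antagonist induced when many cells differentiate, was at 7.67 and 7.87 in TGF-beta1 and 7.84 and 7.79 in low glucose, a difference of -0.04 ± 0.064 (adjusted p = 0.718). The other probe sets of Mxd1 were at 0.14 and 0.03. A miss of the threshold does not show that Max and Mxd1 did not differ.

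**Figure D3:**
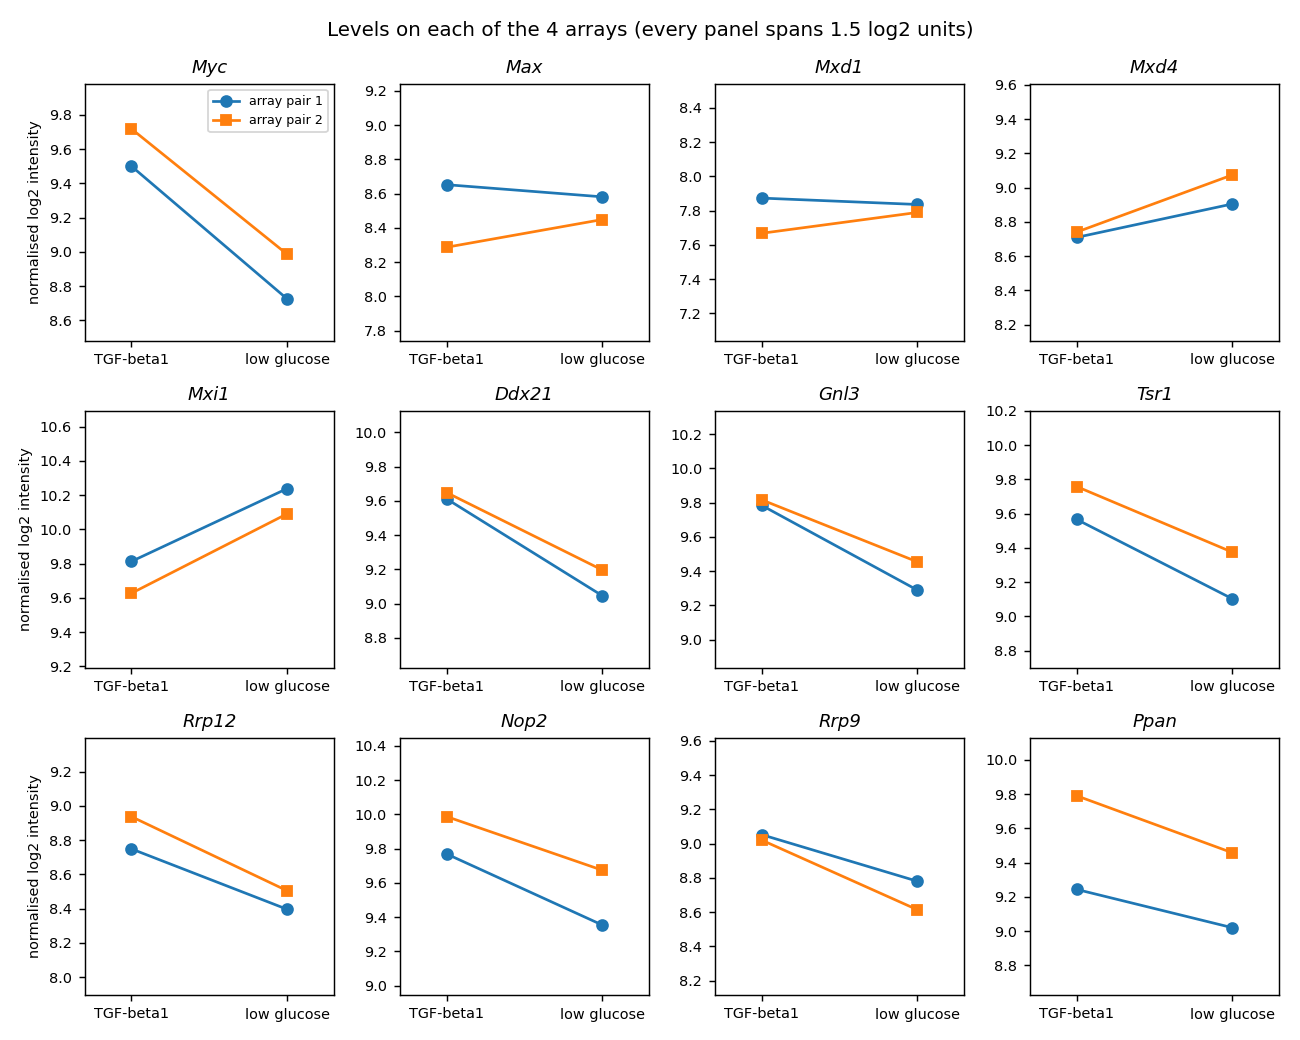
Normalised log2 intensity of 12 genes on each of the 4 arrays, with TGF-beta1 on the left and low glucose on the right and lines joining the arrays of a pair. Every panel spans the same range, so slopes can be compared. Myc, Ddx21 and Gnl3 were higher and Mxi1 and Mxd4 lower in TGF-beta1 within both pairs, while the lines of Max and Mxd1 run in opposite directions.

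Among the genes of RNA polymerase I and its factors, 3 of 6 rose and 0 fell (median 0.13). Mybbp1a, a nucleolar protein that binds polymerase I and several transcription factors, was at 11.01 and 10.93 in TGF-beta1 against 10.66 and 10.69 in low glucose. Both TGF-beta1 arrays were higher, by 0.30 ± 0.074 (adjusted p = 0.000805), and the other probe set was at 0.31. Polr1a and Polr1b, the 2 largest subunits of polymerase I, rose by 0.22 ± 0.081 and 0.20 ± 0.078, close to the threshold (adjusted p = 0.0393 and 0.0494). The other kept probe sets of Polr1a were at 0.10 and 0.07. Polr1b was at 0.42 without TGF-beta1 replicate 1, -0.02 without TGF-beta1 replicate 2, 0.51 without low glucose replicate 1 and -0.10 once low glucose replicate 2 was left out. The initiation factors Ubtf (0.05 ± 0.079) and Rrn3 (0.01 ± 0.080) and the subunit Polr1c (-0.10 ± 0.082), which RNA polymerase III also uses, did not pass.

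Of 5 nucleolar scaffold proteins and chaperones, 3 rose and 2 did not pass, and all 5 were positive within both pairs (median 0.24). Ddx21, an RNA helicase that links polymerase I transcription to rRNA processing, was at 9.65 and 9.61 in TGF-beta1 against 9.05 and 9.20 in low glucose. The groups were well apart, and the rise of 0.51 ± 0.082 (adjusted p = 1.91e-08) was the largest of any assembly gene measured here, with 0.28 on its other probe set. Gnl3, the GTPase nucleostemin, was at 9.82 and 9.78 in TGF-beta1 against 9.29 and 9.45 in low glucose, and rose by 0.43 ± 0.082 (adjusted p = 5.24e-06). Nolc1, a chaperone of snoRNPs, was at 10.42 and 10.35 in TGF-beta1 against 10.13 and 10.15 in low glucose, and rose by 0.24 ± 0.080 (adjusted p = 0.0182; 0.27 and 0.07 on other probe sets). In each of these 3 genes both TGF-beta1 arrays were the higher ones. The abundant scaffold proteins nucleolin (Ncl, 0.14 ± 0.075) and nucleophosmin (Npm1, 0.10 ± 0.066) did not pass, and the other probe sets of Ncl ran from -0.13 to 0.17.

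The box C/D snoRNP, which methylates ribose in rRNA, and the enzymes grouped with it had 4 of 5 genes that rose and 1 that did not pass. Nop2, a methyltransferase that acts on a base of the large subunit's rRNA, was at 9.99 and 9.77 in TGF-beta1 against 9.35 and 9.67 in low glucose. It rose by 0.36 ± 0.083 (adjusted p = 0.000178) without overlap of the groups, and was at 0.20 without low glucose replicate 1. Rrp9, a protein of the U3 snoRNP that guides the first cuts of the precursor, was at 9.02 and 9.05 in TGF-beta1 against 8.78 and 8.61 in low glucose. It too was higher on both TGF-beta1 arrays, by 0.34 ± 0.077 (adjusted p = 0.000168). The core proteins Fbl, the methyltransferase fibrillarin (0.21 ± 0.074), and Nop56 (0.21 ± 0.078) also rose, with 0.20 and 0.26 on their other probe sets, and Nop56 was at 0.13 without low glucose replicate 1. Their partner Nop58 was at -0.0005 ± 0.071, the mean of opposite values within the pairs (0.29 and -0.29).

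In the box H/ACA snoRNP, which turns uridine into pseudouridine, Gar1 and Dkc1 rose, while Nhp2 and Nop10 did not pass. Gar1 was at 10.33 and 10.36 in TGF-beta1 against 10.02 and 10.06 in low glucose, with no overlap, and rose by 0.31 ± 0.081 (adjusted p = 0.00191). Dkc1, the pseudouridine synthase dyskerin, was at 8.82 and 8.60 in TGF-beta1 against 8.30 and 8.63 in low glucose. These values overlap, although Dkc1 was higher within each pair, and it rose by 0.25 ± 0.073 (adjusted p = 0.00608), with 0.21 and 0.15 on other probe sets. Dkc1 was at 0.14 without TGF-beta1 replicate 1, 0.08 without low glucose replicate 1 and 0.41 once low glucose replicate 2 was left out. Nhp2 was at 0.15 ± 0.072, with 0.16 on its other probe set. Nop10, the small scaffold of the particle, was at -0.07 ± 0.063, with -0.10 on its other probe set. Whether the genes of this particle differ from each other was not tested.

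All 9 factors of small subunit assembly were positive within both pairs, and 6 of them rose (median 0.23). Tsr1, a factor of late pre-40S particles that resembles a GTPase, was at 9.76 and 9.57 in TGF-beta1 against 9.10 and 9.38 in low glucose. Its rise of 0.42 ± 0.082 (adjusted p = 6.21e-06) came with 0.36 on its other probe set. Rrp12, which helps export of the subunits, was at 8.94 and 8.75 in TGF-beta1 against 8.40 and 8.50 in low glucose, and rose by 0.39 ± 0.073 (adjusted p = 2.41e-06). Neither gene had overlapping groups. Wdr43, which joins the precursor as it is transcribed, was at 8.75 and 8.52 in TGF-beta1 against 8.22 and 8.43 in low glucose, and rose by 0.31 ± 0.071 (adjusted p = 0.000213). Its other probe set was at 0.01, and the gene was at 0.19 without TGF-beta1 replicate 1 and 0.20 once low glucose replicate 1 was left out.

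Bysl, a factor of the pre-40S particle, was at 9.90 and 9.85 in TGF-beta1 against 9.70 and 9.57 in low glucose, and Nob1, the nuclease that makes the last cut of the small subunit's rRNA, at 9.42 and 9.26 in TGF-beta1 against 9.08 and 9.13 in low glucose. Both genes were higher on both TGF-beta1 arrays and rose by 0.25 ± 0.083 and 0.23 ± 0.081 (adjusted p = 0.0207 and 0.0264). Bysl was at 0.24 on its other probe set, and Nob1 was at 0.15 without TGF-beta1 replicate 1. Utp20, a very large scaffold of the small subunit processome, rose by 0.23 ± 0.075 and was at 0.14 without TGF-beta1 replicate 1 and 0.12 once low glucose replicate 1 was left out. Ltv1, Noc4l and Nop14 were at 0.18 ± 0.083, 0.16 ± 0.082 and 0.07 ± 0.083 without passing.

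Large subunit assembly showed the same direction: all 10 genes were positive within both pairs, 7 rose and 3 did not pass (median 0.22, range 0.04 to 0.28). The groups overlapped for 7 of the 10. Ppan, a factor of the early large subunit particle, was at 9.79 and 9.24 in TGF-beta1 against 9.02 and 9.46 in low glucose. The 2 arrays of a group thus lay farther apart than the groups did, and the rise of 0.28 ± 0.082 (adjusted p = 0.00618) is seen within the pairs (0.22 and 0.33). Without TGF-beta1 replicate 1 or low glucose replicate 1 Ppan was at 0.0049 and 0.06, and without TGF-beta1 replicate 2 or low glucose replicate 2 at 0.55 and 0.50. Rrs1, which helps to bring the 5S rRNA particle in, was at 9.50 and 9.92 in TGF-beta1 against 9.56 and 9.33 in low glucose. It rose by 0.26 ± 0.082 (adjusted p = 0.0112), with 0.29 on its other probe set. Rrs1 was at 0.48 without TGF-beta1 replicate 1, 0.05 without TGF-beta1 replicate 2 and 0.15 once low glucose replicate 2 was left out.

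The PeBoW complex of Pes1, Bop1 and Wdr12, which matures the rRNA of the large subunit, had 1 gene that rose. Bop1 was at 9.49 and 9.90 in TGF-beta1 against 9.74 and 9.18 in low glucose, with overlapping groups and a rise of 0.24 ± 0.082 (adjusted p = 0.0256). Its other probe set was at 0.03, and Bop1 was at 0.44 without TGF-beta1 replicate 1, 0.03 without TGF-beta1 replicate 2, 0.52 without low glucose replicate 1 and -0.04 once low glucose replicate 2 was left out. Pes1 and Wdr12 were at 0.14 ± 0.083 and 0.05 ± 0.082 without passing. Whether the 3 partners differ from each other was not tested.

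Noc3l and Noc2l, which bind each other on pre-60S particles, rose by 0.23 ± 0.071 and 0.22 ± 0.075, and neither had overlapping groups. Noc3l was at 8.73 and 8.45 in TGF-beta1 against 8.29 and 8.42 in low glucose (adjusted p = 0.00831). It was at 0.10 without TGF-beta1 replicate 1 and 0.37 once TGF-beta1 replicate 2 was left out, and Noc2l at 0.12 without TGF-beta1 replicate 1 and 0.14 once low glucose replicate 1 was left out. The other probe sets were at 0.09 for Noc3l and 0.14 for Noc2l. Nip7, a factor of rRNA processing, and Nop16, a MYC-linked nucleolar protein, rose by 0.21 ± 0.081 and 0.21 ± 0.080, with overlapping groups. Nip7 was at 0.12 without TGF-beta1 replicate 1, 0.08 without low glucose replicate 1 and 0.34 once low glucose replicate 2 was left out (other probe set 0.06), and Nop16 at 0.01 without TGF-beta1 replicate 1, 0.42 without TGF-beta1 replicate 2 and 0.12 once low glucose replicate 1 was left out. Rrp1b was at 0.04 ± 0.074 without passing, although its groups did not overlap.

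**Figure D4:**
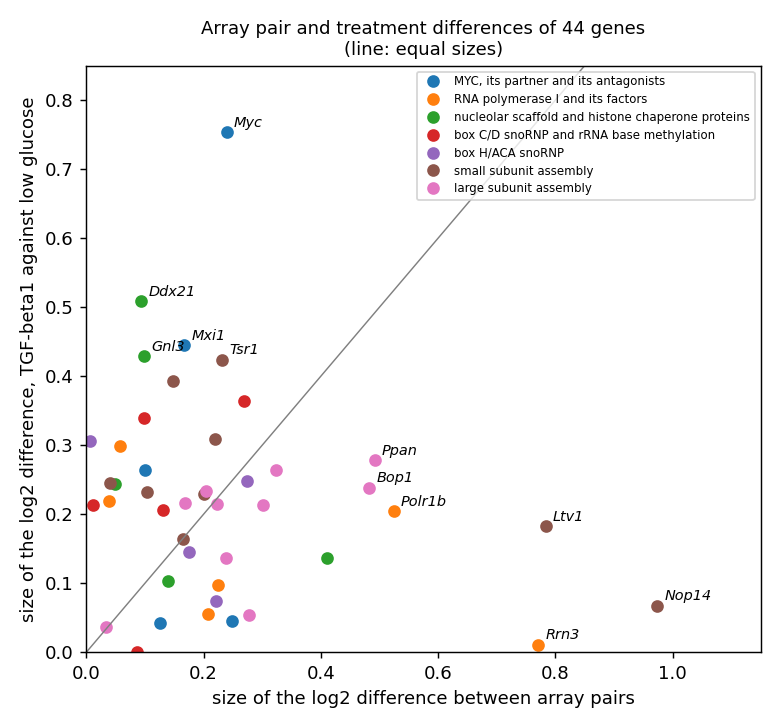
Size of the log2 difference between TGF-beta1 and low glucose (vertical axis) against the size of the difference between array pairs 1 and 2 (horizontal axis) for the 44 genes, coloured by role, with a line of equal sizes. Nop14, Ltv1 and Rrn3 lie far to the right, and Myc, Ddx21, Gnl3, Mxi1 and Tsr1 lie above the line.

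The difference between the array pairs exceeded that between the groups in 22 of the 44 genes, against 10333 of the 13565 genes tested. It was largest in Nop14 (0.97), Ltv1 (-0.78) and Rrn3 (-0.77, pair 1 minus pair 2), 3 genes that did not pass. Nop14 was at 9.21 and 10.22 in TGF-beta1 and at 10.11 and 9.18 in low glucose, so its 2 arrays of pair 1 were the high ones. Ltv1 was at 10.17 and 9.53 in TGF-beta1 and at 9.21 and 10.13 in low glucose, with pair 2 high. Rrn3 was likewise high in pair 2, at 9.52 and 8.80 in TGF-beta1 and at 8.74 and 9.56 in low glucose.

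Among 6 further lists of the pathway, the largest median was that of the list closest to the members. Of 97 further rRNA processing and assembly factors, 19 rose and 0 fell, with a median of 0.12. Its largest were Heatr1, a scaffold of the small subunit processome, at 0.35 ± 0.077, and Utp4, of the same complex, at 0.34 ± 0.082. Rcl1, a factor linked to cleavage of the precursor, followed at 0.31 ± 0.081. Heatr1 was at 0.19 without low glucose replicate 1 and 0.12 and 0.08 on other probe sets, and Utp4 at 0.19 without TGF-beta1 replicate 1 and 0.19 once low glucose replicate 1 was left out. The share called, 19.6%, was close to the 18.5% of all genes, but all 19 were higher. Over all genes 7.89% rose. Here 65 of the 97 genes were positive within both pairs, against 33.9% of all genes.

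The cytosolic ribosomal proteins, the parts that the assembly factors put together, had a median of 0.01. Of 43 genes 1 rose (2.33%, against 7.89% of all genes), 0 fell and 42 did not pass. The gene that rose was Rpl12, at 0.27 ± 0.068, with 0.08 without low glucose replicate 1 and 0.46 once low glucose replicate 2 was left out. Ribosomal protein genes have many near-identical copies in the genome, so their probe sets may not be specific, and 36 of 79 were not tested here. The 43 tested had a median log2 level of 12.74, against 9.57 for the members other than the MYC network. The highest level of any gene tested was 13.48. Whether differences of such bright genes are understated was not tested. Further polymerase I and III genes had a median of -0.02, with 2 of 26 rising and 2 falling. Called were 15.4% of them, against 18.5% of all genes. Polr3d, a polymerase III subunit, rose by 0.26 ± 0.077, Gtf3c1, a subunit of the polymerase III factor TFIIIC, fell by 0.21 ± 0.077 (0.01 and -0.02 on other probe sets) and Polr3gl fell by 0.20 ± 0.065. Without 1 array Polr3d lay between -0.01 (low glucose replicate 2 left out) and 0.53 (without low glucose replicate 1), Gtf3c1 between -0.42 and -0.0013 (without low glucose replicates 2 and 1) and Polr3gl between -0.42 and 0.02 (without TGF-beta1 replicates 1 and 2). The RNA exosome, which trims rRNA ends, had a median of 0.04. Of its 15 genes 1 rose (Dis3, a nuclease, 0.22 ± 0.083) and 1 fell (C1d, an exosome cofactor, -0.22 ± 0.077), 13.3% in all. Dis3 lay between 0.02 (TGF-beta1 replicate 1 left out) and 0.42 (without TGF-beta1 replicate 2), and C1d between -0.37 (low glucose replicate 1 left out) and -0.07 (without low glucose replicate 2).

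Of 14 further MYC network and turnover genes 1 rose (7.14%, against 7.89% of all genes) and 0 fell, with a median of 0.03. It was Pim1, a kinase known to stabilise MYC, at 0.86 ± 0.075. It was at 0.32 without TGF-beta1 replicate 1, 1.40 without TGF-beta1 replicate 2, 0.34 without low glucose replicate 1 and 1.38 once low glucose replicate 2 was left out, but at 0.84 and 0.88 within the pairs, and its other probe set was at 0.27. MYC-linked growth and metabolism genes had 5 of 32 that rose and 1 that fell, with a median of 0.07. Called were 18.8% of them, against 18.5% of all genes, and 15.6% rose, against 7.89%. Mthfd2, a mitochondrial enzyme of one-carbon metabolism, rose by 0.42 ± 0.080, Srm, the spermidine synthase, by 0.37 ± 0.082 and Ccnd1, the G1 cyclin D1, by 0.31 ± 0.081. Srm was at 0.24 without low glucose replicate 2. The gene that fell was Tfap4, a transcription factor, by 0.24 ± 0.076. Its mean log2 level of 6.96 was near the filter at 6.85. Of the 32 genes, 23 were positive and 9 negative.

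**Figure D5:**
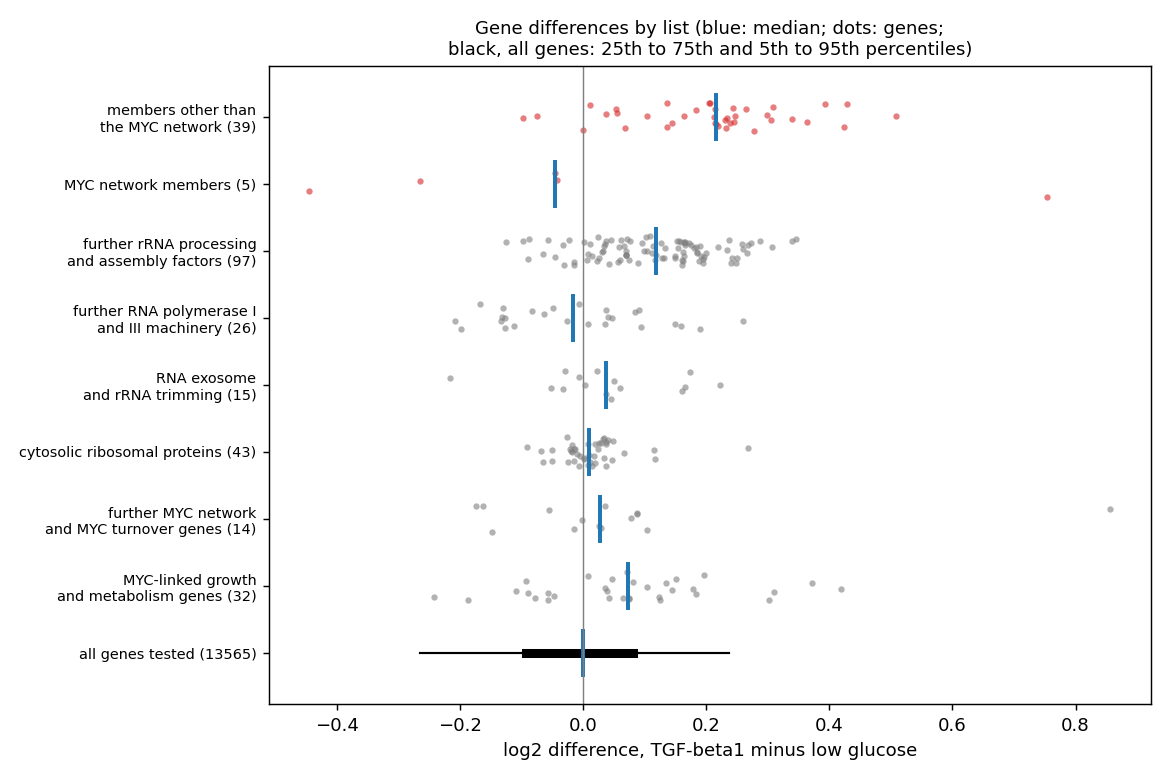
Log2 difference, TGF-beta1 minus low glucose, of each gene (dots) by list, with list medians (blue) and, for all 13565 genes, the 25th to 75th and 5th to 95th percentiles (black). The assembly genes among the members centre at 0.22 and the further assembly factors at 0.12, while the cytosolic ribosomal proteins centre at 0.01. The cytosolic ribosomal proteins are also the brightest list, with a median log2 level of 12.74.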

How the data were processed

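The data are 4 one-colour arrays of 45101 probe sets, with groups taken from the titles. The authors deposited 1 linear intensity per probe set and array. How probes were summarised and arrays scaled is not stated in the sources read here. The array medians differed by up to 0.227 (log2) once a pseudocount, the 25th percentile of all values, was added, so the arrays were quantile normalised. A filter at the 40th percentile of mean log2 intensity left 27022 probe sets. Besides 64 controls, 34945 carried 1 gene symbol in the platform annotation, 932 several and 9160 none here. limma 3.58.1 (R 4.3.3) was run with lmFit and eBayes, an intensity trend and the array pair as a block, two-sided, with Benjamini-Hochberg adjustment over 13565 genes.

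Arrays were paired by the smallest mean absolute log2 difference of the spike-ins, 0.0533 and 0.0887 within pairs and at least 0.969 between arrays of different pairs. The arrays with the same unnumbered repeat tag form pair 1. With the block, 1 residual degree of freedom remained and limma estimated an infinite prior, so standard errors depend on brightness alone. Both fits were tested on simulated data. The simulated arrays carried each gene's observed difference between the array pairs, with noise sized from the standard errors of the blocked fit. The fit without the block recovered none of the changes put in. This setting favours the blocked fit, so the simulation cannot show that the block is right. Where the spread was made to vary between genes, the blocked fit missed nearly all changes of the size common among the members and part of the larger ones, fell short of the recovery first set for it, and called more unchanged genes than with equal spread, so blocked calls may include false ones. Members, lists and tests were chosen with earlier results of these data known. Values on every array are given for the MYC network and for the 20 called members with the largest difference, and up to 3 called genes are named per further list. Tfap4 was named besides these after its value was seen. Tagln, Acta2, Vim, Cdh16, Lrp2, Csf1r and the other markers given by value, the per-array values of Nop14, Ltv1 and Rrn3, and members given by difference alone were added after their values were seen. Figures used matplotlib 3.10.9 (Python 3.11.15). The alternatives were other scalings, pseudocounts and filters, the fit without the block or with a finite prior, second probe sets and leaving out 1 array. The number of arrays limits the precision.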

Additional observations from a re-analysis of the deposited data

How the results depend on the processing

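With the array pair as a replicate block 28 of 44 members were called. The calls rest on the block and its infinite prior: limma without the block, and with the replicate block and the prior degrees of freedom of the fit without it (2.79), called 0 of 13565 genes and 0 members, with 4 and 25 members at an unadjusted p under 0.05. Leaving out 1 array, without the block, gave 0 to 9 genes and 0 members, with a members' median of 0.14 to 0.28; this unbalances the pairs. Without low glucose replicate 2, Polr1b was at -0.10 and Bop1 at -0.038. With TGF-beta1 replicate 2 left out, Polr1b was at -0.02. Leaving out low glucose replicate 1 gave 0.51 for Polr1b and 0.52 for Bop1, and leaving out TGF-beta1 replicate 1 gave 0.42 for Polr1b. Median centring called 18 members. Second probe sets, available for 28 members, called 10, with a median of 0.11. The authors' scaling, other pseudocounts, a floor, no filter or a stricter one, no intensity trend and, added after seeing the data, leaving out probe sets that may match several transcripts called 25 to 28 members, and the median stayed between 0.20 and 0.23. The cause of these moves was not tested.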
